A study of Homo sapiens with 6 samples.

Results

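The mitosis and spindle genes described here are 45 genes that encode the machinery of cell division, from the cyclins and kinases that start mitosis to the motors and bundling proteins that end it, together with FOXM1 and MYBL2, transcription factors that drive their expression. They were chosen by gene symbol from known function, with earlier results of these data known. All 45 were found among the 21293 genes of the deposited expression table, and all 45 had a mean normalised count of at least 10 over the 6 libraries, the filter that left 14395 genes for testing. RNA-seq covered H2087-LCC cells, a population obtained by selection in mice from a human lung adenocarcinoma (LUAD) line, latency competent and labelled as a dormant metastatic derivative. The cells were kept for 3 days in SB505124 (SB), which blocks the kinase of the TGFβ type I receptor, or in TGFβ for 3 days or for 7 days, with 2 libraries per group and no genetic change between groups. The groups share 1 cell population, the study describes the 2 libraries of a group as technical replicates, and p-values then cover only the spread between libraries and not between cultures. SB was sampled only at 3 days, so that at 7 days the effects of TGFβ and of time in culture cannot be told apart.

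Most of these genes are transcribed late in the cell cycle, after DNA replication, and their mRNAs are scarce in cells that have left the cycle. Their promoters are held silent in resting cells by the DREAM complex, which binds a short element called the cell cycle genes homology region (CHR), and are switched on in G2 by complexes that contain the MYBL2 and FOXM1 proteins. TGFβ is a well known inhibitor of the proliferation of epithelial cells, which acts in part through the cyclin-dependent kinase inhibitors p15 (CDKN2B) and p21 (CDKN1A). In bulk RNA, fewer cells in G2 and mitosis and less mRNA per dividing cell cannot be told apart.

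The CHR is the sequence element that these genes are best known to share, and its surroundings are shown for 8 members. The letters do not come from the expression values, but the members shown were picked by them. In each of 8 roles, the member shown is the one with the largest fall at 7 days among those with the core motif TTTGAA within 50 bases of the start site and with 12 bases of the promoter entry on either side of it. ECT2, which fell more than PRC1 and held the motif 35 bases after its start, lacked those flanking bases in its entry. Each window is given 5′ to 3′ on the strand of the gene, with TTTGAA in capitals.
CCNB2: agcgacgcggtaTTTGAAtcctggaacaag
PLK1: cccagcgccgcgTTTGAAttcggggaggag
MAD2L1: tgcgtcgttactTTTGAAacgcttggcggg
NUF2: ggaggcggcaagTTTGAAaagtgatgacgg
CDCA8: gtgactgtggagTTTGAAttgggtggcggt
HMMR: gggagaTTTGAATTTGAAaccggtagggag
PRC1: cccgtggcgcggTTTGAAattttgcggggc
MKI67: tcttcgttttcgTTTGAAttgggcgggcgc
In the RefSeq promoters of build GRCh38.p14, these windows lay on the plus strand at chr15:59105105-59105134 (CCNB2), chr16:23678848-23678877 (PLK1), chr1:163321958-163321987 (NUF2), chr1:37692481-37692510 (CDCA8) and chr5:163460598-163460627 (HMMR). They lay on the minus strand at chr4:120066807-120066836 (MAD2L1), chr15:90994538-90994567 (PRC1) and chr10:128126435-128126464 (MKI67). The motif began between 29 and 20 bases upstream of the start in CCNB2, PLK1, CDCA8, HMMR, PRC1 and MKI67, and 25 and 17 bases downstream of it in MAD2L1 and NUF2. HMMR held a pair of adjoining copies.

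A promoter entry, which runs from 250 bases before to 50 bases after the annotated start, was found for 37 of the 45 members. Some genes had several entries, and a match in any of them was counted for the gene. The others were AURKA, BIRC5, BUB3, FOXM1, RACGAP1, TPX2, TTK and UBE2C. Searched on both strands, TTTGAA occurred in 26 of the 37 members (70.3%), against 13.8% of the 10355 tested genes with an entry. Within 50 bases of the start, the motif was found in 23 of the 37 (62.2%) and in 4.31% of the tested genes. The CCAAT box, bound by the factor NF-Y, occurred in 30 (81.1%) against 42.8%, and both motifs together in 22 (59.5%) against 7.55%. The CHR variant TTCGAA was found in 3 (8.11%, against 2.30%) and the E2F motif TTCCCGCC in 3 (8.11%, against 6.11%). None of these motifs contains another. A match is a string of letters and not a measured binding site, and members whose entries lacked TTTGAA fell as well. The median log2 difference between 7 days of TGFβ and SB was -0.78 over the 26 members with the motif and -0.70 over the 11 without it, which included both MYBL2 at -1.61 and CDC25B at -0.06.

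**Figure D1:**
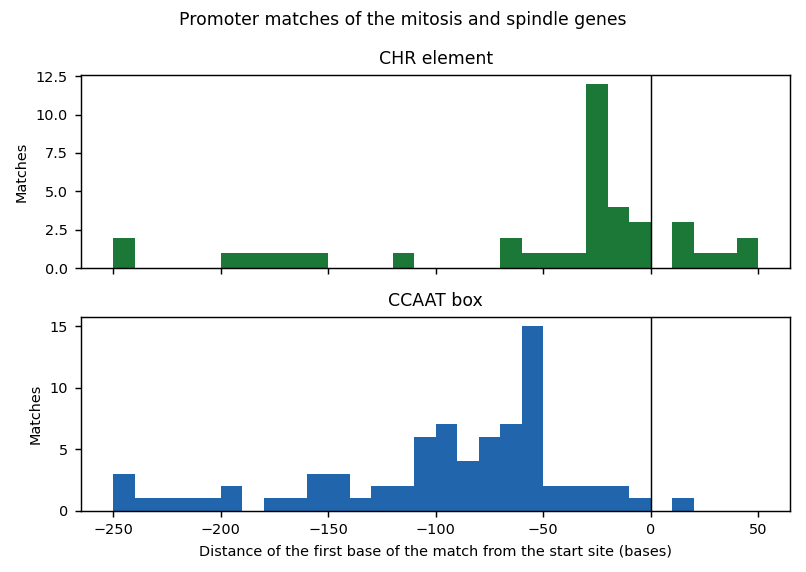
Number of matches (y axis) of the CHR element and of the CCAAT box by the distance of their first base from the start site in bases (x axis, bins of 10 bases) in the promoter entries of 37 mitosis and spindle genes. Where a gene has overlapping entries, the same site is counted in each. The matches to the CHR element gather within 50 bases of the start, where 23 of the 37 genes hold one.

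Over the 45 members, mRNA levels fell with TGFβ and fell further between 3 and 7 days. The members' normalised counts together made up 1.17% and 1.12% of all normalised counts in the SB libraries, 0.896% and 0.866% at 3 days and 0.634% and 0.671% at 7 days. The 3 groups did not overlap in this share. The median member differed from SB by -0.30 on the log2 scale at 3 days, with a range from -0.86 to 0.10, and by -0.77 at 7 days, with a range from -1.80 to -0.06. Between 3 and 7 days the median difference was -0.48. Over all 14395 genes tested, the corresponding medians were -0.02, -0.00081 and 0.02. All log2 differences are on the scale log2(normalised count + 1).

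At 3 days, 26 of the 45 members were lower than in SB with an adjusted p under 0.05 in limma's moderated test with Benjamini-Hochberg adjustment, and 0 were higher. Among all genes tested, 14.0% were lower and 14.9% higher in this comparison. Both TGFβ libraries lay below both SB libraries for 38 members, against 32.9% of all genes. The count at 3 days depended on the model and on the libraries kept. With all libraries it was 13 without the trend in limma and 16 with no filter on low values. It fell without the second 3-day library or the first SB library, and rose without the second SB library. It also fell without either 7-day library, although these are outside the comparison. The 12 members that passed the threshold under each of the 17 alternatives run for this comparison were CCNB2, BUB1, AURKB, BIRC5, CDCA8, KIF2C, NUSAP1, KIF20A, CDC20, UBE2C, TOP2A and MYBL2. At 7 days, 44 members were lower than in SB and 0 higher, where 26.9% of all genes were lower and 27.7% higher. Both 7-day libraries lay below both SB libraries for 45 of 45 members, against 38.6% of all genes, and 40 of the 44 calls held under each of 17 alternatives. The exceptions were NEK2, CENPE, CENPF and ANLN. Between 7 and 3 days of TGFβ, 38 members were lower and 1 higher, where 16.2% of all genes were lower and 17.0% higher. Both 7-day libraries lay below both 3-day libraries for 44 members, against 32.9% of all genes. Without the first 7-day library the number lower between 3 and 7 days was 24.

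**Figure D2:**
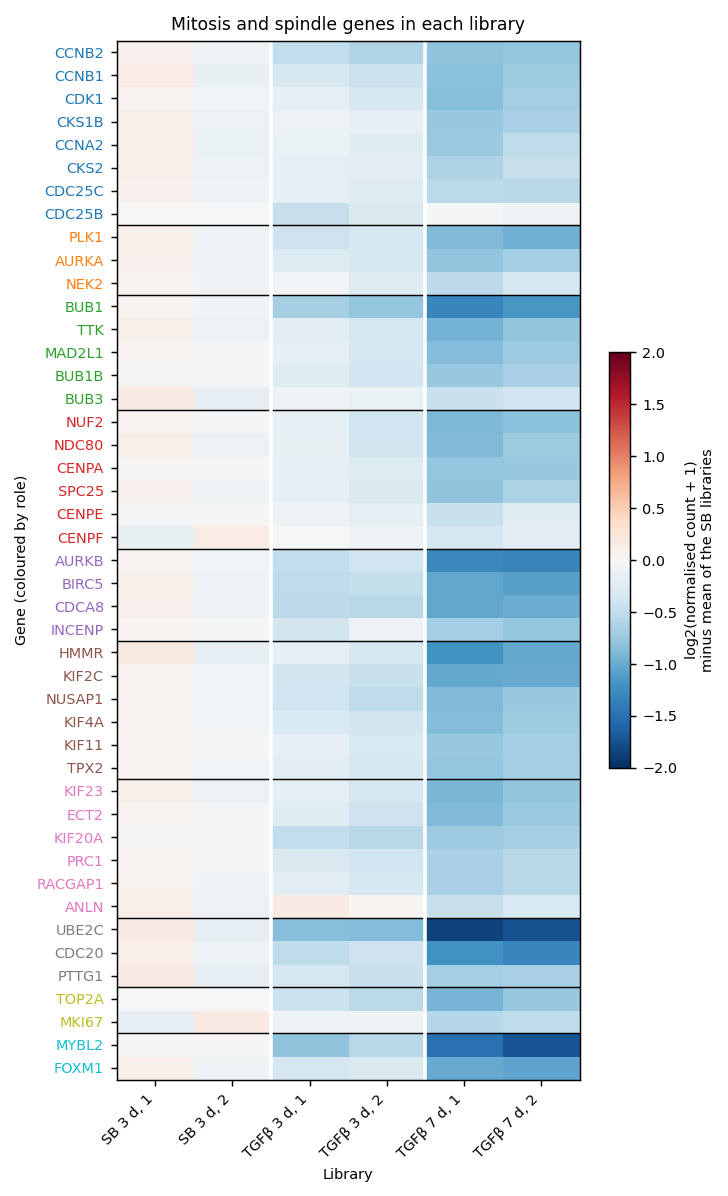
Each row is 1 of the 45 genes, grouped and coloured by role, and each column 1 of the 6 libraries. Colour gives log2(normalised count + 1) minus the mean of the 2 SB libraries, from blue (lower) to red (higher), and every 7-day value is below the SB mean.

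The genes of entry into mitosis encode the kinase CDK1, its cyclins CCNA2, CCNB1 and CCNB2, the phosphatases CDC25B and CDC25C that activate it and its small docking subunits CKS1B and CKS2. Of these 8 genes, 3 were lower at 3 days and 7 at 7 days. The shares of all genes tested, 14.0% lower at 3 days and 26.9% at 7 days, apply to the counts of every role. CDK1 was at 9075 and 8350 normalised counts in SB, 7615 and 6963 at 3 days and 4815 and 5392 at 7 days. It differed from SB by -0.26 (adjusted p = 0.053) at 3 days and by -0.77 (adjusted p = 2.53e-05) at 7 days. The groups did not overlap, but the step to 3 days did not pass the threshold.

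CCNB1, the cyclin B whose destruction ends mitosis, was at 17644 and 14290 in SB, 12735 and 11748 at 3 days and 8896 and 9696 at 7 days. It fell by 0.38 on the log2 scale (adjusted p = 0.0175) at 3 days and by 0.77 (adjusted p = 6.7e-05) at 7 days. CCNB2, the other mitotic cyclin B, had the largest fall of the role at 7 days. It was at 7313 and 6472 in SB, 4911 and 4538 at 3 days and 3934 and 4032 at 7 days. Most of its difference at 7 days (-0.79) was present at 3 days (-0.54), and the step between them (-0.25, adjusted p = 0.0545) did not pass the threshold. CCNA2, the cyclin of S phase and early mitosis, overlapped between SB and 3 days, with 4690 in the lower SB library and 4701 in the higher 3-day library, and was lower at 7 days (-0.62).

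CDC25B was the 1 member that was lower at 3 days and then higher again. Its normalised counts were 5416 and 5481 in SB, 3968 and 4435 at 3 days and 5292 and 5168 at 7 days. It differed from SB by -0.38 at 3 days (adjusted p = 0.00609) and by -0.06 at 7 days, with a 95% interval from -0.25 to 0.13, and rose by 0.32 between 3 and 7 days (adjusted p = 0.0147). The rise rests on single libraries. Its adjusted p was at or above 0.05 without the first 3-day library or without either 7-day library, and reached 0.153. Corrected for GC content and length, the rise was 0.18 (adjusted p = 0.0417). The fall at 3 days had an adjusted p of 0.0861 without the first 3-day library. CDC25C, the other CDC25 of mitosis, was lower at 7 days (-0.54) and at 3 days differed from SB by -0.22 (adjusted p = 0.124).

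**Figure D3:**
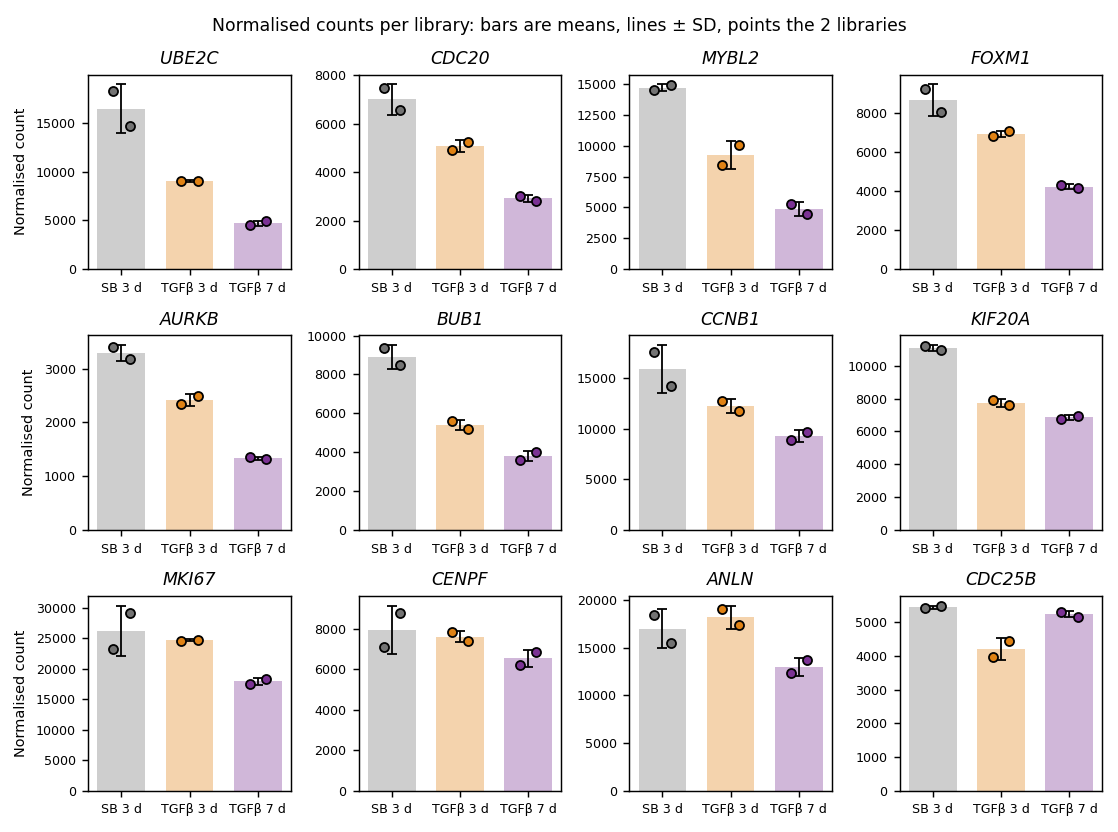
Normalised counts (y axis, from 0) of 12 members in SB, in 3 days of TGFβ and in 7 days of TGFβ, with bars for the mean of the 2 libraries, lines for ± SD and points for the libraries. UBE2C falls from a mean of 16478 to 4720, while CDC25B is lowest at 3 days and ANLN is not lower at 3 days than in SB.

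Of the 3 kinases of centrosomes and spindle poles, PLK1, which acts from mitotic entry to cytokinesis, was at 6364 and 5584 in SB, 4456 and 4705 at 3 days and 3243 and 3065 at 7 days. It fell by 0.38 on the log2 scale (adjusted p = 0.00843) at 3 days and by 0.92 (adjusted p = 6.42e-06) at 7 days. AURKA, the Aurora kinase of the spindle poles, fell by 0.30 and 0.73. Its 3-day call was lost with no filter on low values and without the trend in limma, among other alternatives. With a library left out, the 3-day difference of AURKA ranged from -0.38 to -0.22. NEK2, which separates the centrosomes, was at 2349 and 2124 in SB, 2155 and 1895 at 3 days and 1551 and 1764 at 7 days. Its SB and 3-day libraries overlapped. It was lower at 7 days (-0.43, adjusted p = 0.00484), with an adjusted p of 0.0659 without the first 7-day library.

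The spindle assembly checkpoint delays anaphase until all chromosomes are attached, and its 5 members here were all lower at 7 days, with 3 lower at 3 days. BUB1, a kinetochore kinase of the checkpoint, had the largest difference. It was at 9353 and 8480 in SB, 5594 and 5215 at 3 days and 3605 and 3991 at 7 days. The difference from SB was -0.72 (adjusted p = 9.44e-05) at 3 days and -1.23 (adjusted p = 5.07e-07) at 7 days. BUB3, a partner of BUB1 that is needed at kinetochores for checkpoint signalling, had the smallest. Its counts of 21005 and 16894 in SB overlapped those of 17880 and 17121 at 3 days, and it was at 13871 and 14430 at 7 days (-0.41, adjusted p = 0.00418). Its 7-day difference ranged from -0.57 to -0.26 with a library left out and was -0.65 when corrected for GC content and length. TTK, the kinase that starts checkpoint signalling, BUB1B, part of the complex that inhibits the anaphase-promoting complex, and MAD2L1, which binds CDC20 in that complex, lay between them at 7 days with differences of -0.87, -0.70 and -0.79. The call for MAD2L1 at 3 days was marginal (adjusted p = 0.0498).

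Of 6 kinetochore genes, 1 (NUF2) passed the threshold at 3 days and all 6 were lower at 7 days. Among all genes tested, 14.0% were lower at 3 days and 26.9% at 7 days. The 3-day call of NUF2 was lost with no filter on low values and without the trend in limma, among other alternatives. With a library left out, its 3-day difference ranged from -0.39 to -0.20. NUF2, a microtubule-binding subunit of the NDC80 complex, was at 5350 and 5046 in SB, 4528 and 3952 at 3 days and 2776 and 2954 at 7 days, which gave -0.30 (adjusted p = 0.0325) and -0.86 (adjusted p = 1.33e-05). The other subunits of that complex that are among the members had differences close to this, NDC80 of -0.26 and -0.80 and SPC25 of -0.23 and -0.72. CENPA, the histone variant of centromeres, had differences of -0.22 and -0.76. For these last 3 the 3-day difference did not pass the threshold.

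CENPE, the kinetochore motor that carries chromosomes to the spindle equator, and CENPF, a large kinetochore protein made in G2, had the smallest differences of the role. CENPF was at 7090 and 8788 in SB, 7816 and 7404 at 3 days and 6228 and 6825 at 7 days. Its SB libraries spanned both 3-day libraries, and the 7-day difference of -0.28 (adjusted p = 0.0417) was the weakest call among the 44. It was lost in 6 of the alternatives, among them those without the second SB library or without either 7-day library, with an adjusted p of 0.295 at most, and the value ranged from -0.43 to -0.12 with a library left out. CENPE was at 6307 and 6551 in SB, 5982 and 5620 at 3 days and 4720 and 5454 at 7 days, and its 7-day difference was -0.34 (adjusted p = 0.00752, and 0.123 without the first 7-day library). Corrected for GC content and length, the 7-day differences were larger, at -0.58 for CENPF (adjusted p = 9.64e-05) and -0.61 for CENPE (adjusted p = 1.64e-05).

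The chromosomal passenger complex corrects faulty attachments and later marks the site of division, and its 4 members were all lower at 7 days, with a median of -1.04. AURKB, its kinase, was at 3403 and 3184 in SB, 2341 and 2494 at 3 days and 1353 and 1311 at 7 days. The difference was -0.45 (adjusted p = 0.00311) at 3 days and -1.30 (adjusted p = 3.06e-07) at 7 days, with a further -0.86 between them (adjusted p = 6.49e-05). BIRC5 (survivin) and CDCA8 (borealin), which dock the complex on chromosomes, fell by 1.06 and 1.02 on the log2 scale at 7 days. INCENP, the scaffold that activates AURKB, was at 2376 and 2237 in SB, 1783 and 2121 at 3 days and 1433 and 1343 at 7 days. Its difference of -0.25 at 3 days was not past the threshold (adjusted p = 0.105) and that of -0.73 at 7 days was (adjusted p = 0.000122).

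Among the 6 spindle motors and microtubule-associated proteins, 4 were lower at 3 days and all 6 at 7 days. HMMR, a spindle pole adaptor, was at 4915 and 3851 in SB, 3791 and 3468 at 3 days and 1907 and 2133 at 7 days. The 3-day libraries lay just below the lower SB library (-0.26, adjusted p = 0.117), and most of the 7-day difference of -1.11 came after day 3 (-0.85, adjusted p = 0.000386). KIF2C, a kinesin that depolymerises microtubules at centromeres, had differences of -0.41 and -1.01 from SB at the 3-day and 7-day points. NUSAP1, a microtubule bundler, and KIF4A, a chromosome-bound kinesin, fell by 0.82 and 0.79 at 7 days.

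The smallest 7-day differences of the role were those of TPX2, the activator of AURKA on spindle microtubules, and KIF11, the kinesin that pushes the spindle poles apart, both at -0.73. TPX2, one of the most abundant members, was at 27490 and 25408 in SB, 22720 and 21117 at 3 days and 15420 and 16563 at 7 days. It was lower at 3 days (adjusted p = 0.0291), at 7 days (adjusted p = 1.98e-05) and between them (adjusted p = 0.00194). The 3-day call of TPX2 was lost with no filter on low values and without the trend in limma, among other alternatives. With a library left out, its 3-day difference ranged from -0.33 to -0.21. KIF11 missed the threshold at 3 days (-0.24, adjusted p = 0.0548).

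**Figure D4:**
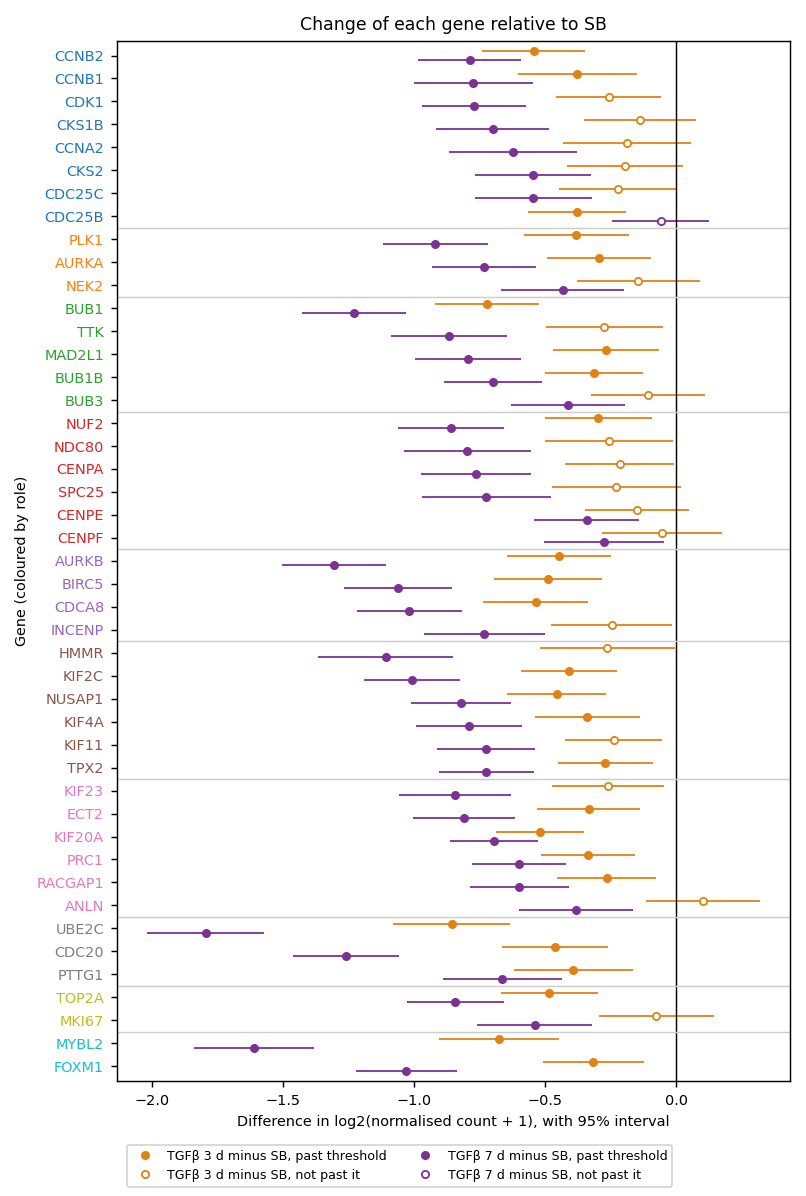
Difference from SB in log2(normalised count + 1) on the x axis for each of the 45 genes, with 95% intervals from limma, at 3 days (orange) and 7 days (purple) of TGFβ. Filled points have an adjusted p under 0.05, which holds for 26 genes at 3 days and 44 at 7 days, and the open purple point is CDC25B.

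Cytokinesis genes held both members that passed the threshold at 3 days and members that did not. KIF20A, the kinesin that brings the passenger complex to the central spindle, was at 11234 and 10963 in SB, 7894 and 7584 at 3 days and 6741 and 6966 at 7 days. Its difference of -0.52 at 3 days (adjusted p = 0.000343) was followed by a step of -0.18 that did not pass the threshold (adjusted p = 0.102). KIF23, the motor subunit of centralspindlin, was at 11892 and 10096 in SB, 9582 and 8723 at 3 days and 5840 and 6374 at 7 days, with -0.26 at 3 days (adjusted p = 0.0654) and a further -0.58 to 7 days (adjusted p = 0.00122). Corrected for GC content and length, the 3-day difference of KIF23 was -0.30 and passed the threshold (adjusted p = 0.0121). Whether such members differ from each other in timing was not tested.

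ANLN, the anillin scaffold of the contractile ring, was the 1 member with a higher mean at 3 days than in SB. It was at 18450 and 15518 in SB, 19048 and 17318 at 3 days and 12307 and 13676 at 7 days. The 3-day difference of 0.10 had an interval from -0.12 to 0.32 and changed sign without the second SB library (-0.02). At 7 days ANLN was lower than in SB (-0.38, adjusted p = 0.00638), a call lost without the first SB library, without the first 7-day library or without the trend in limma, with an adjusted p of 0.0803 at most. RACGAP1, the other subunit of centralspindlin, PRC1, which bundles the central spindle, and ECT2, the exchange factor that sets up the contractile ring, were lower at both times, by -0.60, -0.60 and -0.81 at 7 days. None of these 3-day calls held without the trend in limma, and those of RACGAP1 and ECT2 were also lost with no filter on low values. With a library left out, the 3-day difference of RACGAP1 ranged from -0.33 to -0.20.

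The largest difference of any member belonged to the anaphase genes. UBE2C, the ubiquitin-conjugating enzyme that works with the anaphase-promoting complex (APC/C), was at 18277 and 14679 in SB, 9082 and 9004 at 3 days and 4543 and 4897 at 7 days. The 7-day mean was 0.286 times that of SB. The log2 difference was -0.86 (adjusted p = 6.27e-05) at 3 days and -1.80 (adjusted p = 5.73e-08) at 7 days, which ranked 354 among the falls of all 14395 genes. CDC20, the activator of the APC/C in mitosis, was at 7468 and 6555 in SB, 4904 and 5250 at 3 days and 3026 and 2817 at 7 days, which gave -0.46 and -1.26 (adjusted p = 0.00274 and 5.01e-07).

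PTTG1 (securin), the inhibitor of separase that the APC/C destroys, was at 10619 and 8493 in SB, 7498 and 6985 at 3 days and 5925 and 6069 at 7 days. At 7 days it differed from SB by -0.66 (adjusted p = 0.000214). The step after 3 days (-0.27, adjusted p = 0.0637) did not pass the threshold. PTTG1 has near-identical copies elsewhere in the genome, so its count is uncertain.

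The subunits of the APC/C itself were taken from a list beside the members. Of 14 subunits and the interphase activator FZR1, 4 were lower at 7 days and 2 higher, with a median of -0.15, where 26.9% of all genes tested were lower and 27.7% higher. ANAPC15 (-0.83), ANAPC1 (-0.64) and ANAPC7 (-0.40) fell the most, while CDC27 (0.45) and FZR1 (0.40) were higher. With a library left out FZR1 ranged from 0.22 to 0.59, and its call was lost without either SB library or without the first 7-day library (adjusted p up to 0.352). Corrected for GC content and length, CDC27 was at 0.27 and FZR1 at 0.22, both still past the threshold. At 3 days 1 of the 15 was lower and 0 higher, against 14.0% and 14.9% of all genes tested.

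Both genes of chromosome structure are widely used marks of proliferation. TOP2A, the topoisomerase that untangles sister chromatids, had the highest normalised count of the 45. It was at 34364 and 34661 in SB, 25645 and 23744 at 3 days and 18138 and 20408 at 7 days, and differed from SB by -0.48 (adjusted p = 0.00112) at 3 days and -0.84 (adjusted p = 7e-06) at 7 days. MKI67, which encodes the antigen Ki67, was at 23254 and 29137 in SB, 24613 and 24779 at 3 days and 17553 and 18266 at 7 days. The SB libraries lay on either side of the 3-day libraries, and the 3-day difference did not pass the threshold (-0.08, interval from -0.30 to 0.14). At 7 days MKI67 was lower (-0.54, adjusted p = 0.00075). Corrected for GC content and length, its differences were -0.23 at 3 days, past the threshold (adjusted p = 0.014), and -0.89 at 7 days.

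Both transcription factors were lower at 3 and at 7 days. MYBL2 (B-Myb), the subunit that turns the MuvB complex into an activator, was at 14505 and 14930 in SB, 8443 and 10063 at 3 days and 5235 and 4428 at 7 days. Its difference of -0.67 (adjusted p = 0.00048) at 3 days and -1.61 (adjusted p = 1.72e-07) at 7 days was exceeded among members only by UBE2C at 7 days. FOXM1 was at 9224 and 8043 in SB, 6812 and 7031 at 3 days and 4297 and 4140 at 7 days, with -0.32 (adjusted p = 0.0189) and -1.03 (adjusted p = 1.84e-06). Both fell again between 3 and 7 days, by 0.94 and 0.71 on the log2 scale.

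Members were also compared as levels per kilobase of the canonical transcript. In SB the mean level was highest for UBE2C, at 21207 normalised counts per kilobase, followed by PTTG1 at 13365 and CCNB1 at 7869. At 7 days PTTG1, at 8387, lay above UBE2C, at 6075, and CCNB1 was at 4582. The lowest in both groups was INCENP, at 561 and 337. Relations with transcript length depended on the correction for GC content and length. Before it, across the 45 members the log2 difference at 7 days correlated with log2 transcript length at Pearson r = 0.35 and Spearman rho = 0.26, a description over genes that share the same libraries. With each library corrected for its trends on GC content and length, r was -0.04. The correction takes out any trend on length over all genes in a library, whatever its source. The weaker r and the shift of long against short transcripts are therefore in part built into it. Whether the relation with length was technical was not tested. The 10 longest transcripts, among them MKI67, CENPF and CENPE, had a median of -0.63 before the correction and -0.88 after it. The 10 shortest, among them UBE2C and PTTG1, went from -0.77 to -0.66, so that the order of both groups turned round.

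Library differences that the groups do not explain moved with the members. The first library was the higher one for 39 of the 45 members in SB and for 36 at 3 days, and for 9 at 7 days, with median log2 ratios of 0.14, 0.10 and -0.10. Across members, this ratio correlated with GC content at r = -0.87 at 3 days and 0.86 at 7 days, and with log2 length at r = -0.58 in SB, again over genes of the same libraries. With each library corrected for GC content and length, the numbers of lower members were 36 at 3 days, 44 at 7 days and 43 between them. This fit covered the 13695 tested genes with a known GC content and length. The share of all genes lower under the correction was not counted. Whether the added calls are particular to the members was therefore not tested. The correction lost none of the members' calls. At 3 days it added 10, CDK1, TTK, NDC80, SPC25, CENPE, CENPF, KIF11, HMMR, KIF23 and MKI67, and between 3 and 7 days it added 5, CCNB2, NEK2, CENPE, CENPF and KIF20A. The deposited normalised counts summed to between 34306283 and 36340734 per library. The defining marker SFTPC of lung alveolar cells was near 0, at 1 normalised count in 1 library and 0 in the others, and SFTPB differed between the SB libraries, at 1104 and 8273, and was at 24 or less with TGFβ. The 12 lung epithelial markers summed to between 109345 and 128785 in SB, 100772 and 113136 at 3 days and 92976 and 105609 at 7 days, with KRT8 and KRT18 the most abundant. By gene, 8 of the 11 tested were lower and 1 higher at 3 days, with a median of -0.66, and 7 were lower and 2 higher at 7 days, with a median of -1.03. Their part in the members' differences was not tested. Of 14 markers of blood, endothelial and stromal cells, 9 had a mean under 10, with HBB at 0 in every library, and their sum of 4830 to 6056 was mostly CD68. PDGFRB (3.96) and COL1A1 (1.22), known targets of TGFβ in several cell types, rose at 7 days. The part of other cells in the members' differences was not tested.

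Other genes of the division machinery were taken from lists by function. At 7 days 26.9% of all genes tested were lower and 27.7% higher, and the counts of each list stand beside these shares. Of 32 further kinetochore genes, 25 were lower at 7 days and 0 higher, with a median of -0.58. TRIP13, the ATPase that recycles MAD2L1, fell by 1.11 on the log2 scale, CENPM, of the inner kinetochore, by 1.07 and SKA3, of the outer kinetochore, by 1.07. Of 30 further spindle and centrosome genes, 20 were lower and 1 higher, with a median of -0.56. KNSTRN (-1.49), PSRC1 (-1.17) and KIF15 (-1.04), which act on spindle microtubules, had the largest falls, and CLASP1, a microtubule stabiliser that also works in interphase, rose (0.60, and 0.35 when corrected for GC content and length).

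Of 22 genes of cohesin and condensin, the ring complexes that hold and compact chromosomes, 15 were lower and 3 higher. CDCA5 (sororin, -1.16), NCAPH2 (-1.06) and SGOL1 (shugoshin, -0.94) fell the most. The 3 that were higher were NIPBL (0.45), PDS5B (0.43) and WAPAL (0.29), which load, hold or release cohesin throughout interphase. Corrected for GC content and length, these were 0.13, 0.20 and 0.10, and NIPBL and WAPAL no longer passed the threshold. WAPAL was also lost without the second SB library or the second 7-day library (adjusted p up to 0.164). Of 20 further regulators of entry and exit, 9 were lower and 2 higher, against 26.9% and 27.7% of all genes tested. PKMYT1, a kinase that inhibits CDK1, fell by 1.82 on the log2 scale, and UBE2S, which extends ubiquitin chains for the APC/C, by 1.21. CDC25A, the CDC25 of S phase entry, fell by 1.12, while CDC14B (0.45) and FBXW11 (0.25) were higher. The call of FBXW11 was lost without either SB library or the second 7-day library (adjusted p up to 0.282). Corrected for GC content and length, CDC14B was at 0.30 and FBXW11 at 0.15.

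**Figure D5:**
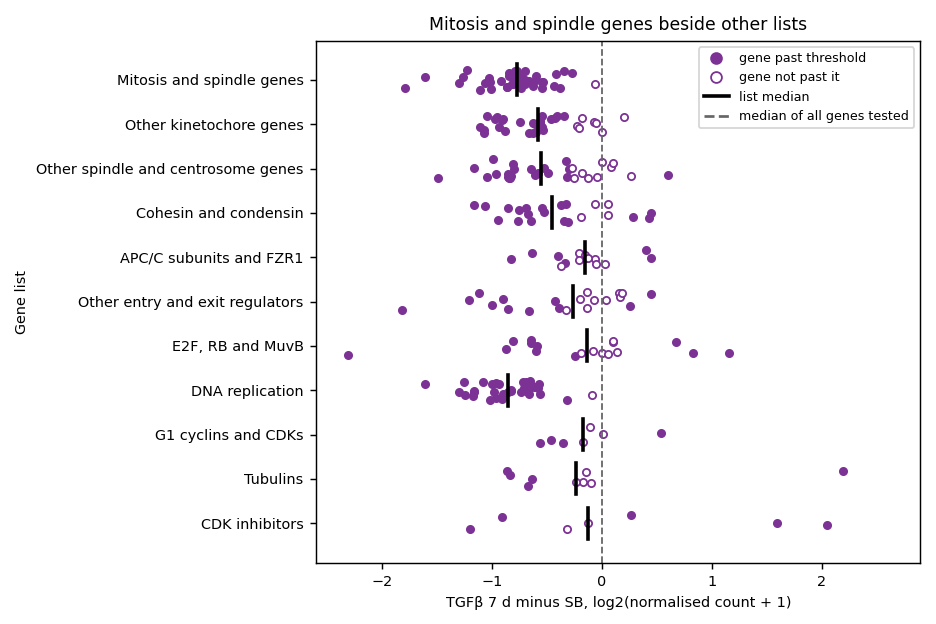
Difference between TGFβ for 7 days and SB in log2(normalised count + 1) on the x axis for each tested gene of 11 lists, with bars at the list medians and a dashed line at the median of all genes tested. The mitosis and spindle genes (median -0.77) and the DNA replication genes (median -0.86) lie almost wholly to the left, while the APC/C subunits and CDK inhibitors spread to both sides.

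DNA replication genes, which are transcribed earlier in the cycle under E2F, had differences of the same order as the members. Of 33, 32 were lower at 7 days and 0 higher, with a median of -0.86, and 19 were lower at 3 days. Among all genes tested, 26.9% were lower at 7 days and 14.0% at 3 days. CDT1, which licenses origins, fell by 1.61 on the log2 scale, POLD1, the catalytic subunit of polymerase delta, by 1.30 and TYMS, thymidylate synthase, by 1.25. The median over the 45 members was -0.77. The difference between both lists was not tested.

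Among 18 genes of the E2F, RB and MuvB families, 8 were lower and 3 higher at 7 days, against 26.9% and 27.7% of all genes tested. The activators E2F2 (-2.31) and E2F1 (-0.87) and the repressor E2F8 (-0.81) fell. The repressor E2F7 was at 6151 and 4634 in SB, 12633 and 11956 at 3 days and 12023 and 11837 at 7 days, a rise of 1.20 at 3 days and 1.16 at 7 days. RBL2 (p130), the pocket protein of DREAM, rose by 0.67 and the E2F partner TFDP2 by 0.83 (0.54 when corrected for GC content and length).

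The 7 CDK inhibitors of both families moved in different directions. CDKN2B (p15) was at 325 and 295 in SB, 825 and 841 at 3 days and 1278 and 1294 at 7 days, a rise of 2.05 at 7 days (adjusted p = 4.04e-08). CDKN1A (p21) was at 1253 and 1184 in SB, 3125 and 3365 at 3 days and 3840 and 3530 at 7 days, a rise of 1.60 (adjusted p = 6.7e-08). Both were above SB in each TGFβ library. CDKN2A was higher by 0.27, ranging from 0.16 to 0.38 with a library left out, and its call was lost without the second SB library or either 7-day library (adjusted p up to 0.198). CDKN2C (-0.91) and CDKN1C (-1.20) fell. CDKN1C was at 39 normalised counts or fewer in every library and did not pass without the first 7-day library (adjusted p = 0.063). CDKN1B (-0.13) and CDKN2D (-0.31) did not pass the threshold at 7 days. At 3 days CDKN1B was lower than in SB (-0.38, adjusted p = 0.0112), and CDKN2D did not pass (-0.25).

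Of 7 tested G1 cyclins and kinases, 3 were lower at 7 days, CDK4 (-0.56), CDK2 (-0.46) and CCNE2 (-0.36, lost without the first SB or the first 7-day library, adjusted p up to 0.063), and 1 was higher, CCND1 (0.54), the cyclin D1 that answers growth signals. Of 9 tested tubulins, the subunits of microtubules in all phases, 4 were lower and 1 higher. Both short lists stand beside 26.9% lower and 27.7% higher over all genes tested. TUBA1B (-0.87), TUBB4B (-0.83) and TUBA1C (-0.67) fell, and TUBA1A rose from 1425 and 1796 in SB to 3538 and 3661 at 3 days and 7324 and 7351 at 7 days (2.20). Tubulin genes are near-identical in sequence and the study assigned uniquely mapped reads to genes, so reads from shared stretches may be missing from their counts.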

How the data were processed

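The 6 RNA-seq libraries fall into 3 groups of 2. After quality control with FastQC 0.11.5, the authors aligned read pairs with STAR to hg19, assigned them to genes with HTSeq 0.6.1p1 and scaled the counts to library size. The deposited values, recorded under the unit score, are these normalised counts rounded to whole numbers, so that read counts and depth per gene are not given and the authors' test on counts was not used. Test precision rests on 2 libraries per group; an exact permutation test of 2 against 2 cannot go below p = 0.333.

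Log2(value + 1) was fitted with limma 3.58.1 (R 4.3.3; empirical Bayes with trend) on 14395 genes with a mean of at least 10, with a model of group alone (3 residual degrees of freedom), two-sided, adjusted by Benjamini-Hochberg at 0.05 per comparison over all genes tested. The members and lists were chosen with earlier results of these data known. All members may be named; values per library are given, within each role, for the largest and smallest 7-day difference, for 10 leading genes and for members that depart from most. Of other lists, up to 3 rises and 3 falls past the threshold and all CDK inhibitors are named; CDK6, TUBA4A, PDGFRB, COL1A1, SFTPB, SFTPC and HBB were named after their values were seen. Replicate numbers did not pair the libraries. Symbols were matched to GENCODE on GRCh37 (18435 current, 1311 older, 1547 unmatched of 21293) for transcript length and GC content, and to RefSeq promoters on GRCh38.p14 for motifs. Alternatives are given in the closing section; the correction for GC content and length (loess) and the crossed pairing were added after seeing the data. The steps were tested on simulated data. Figures were drawn with matplotlib 3.10.9.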

Additional observations from a re-analysis of the deposited data

Results flagged for a closer look

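The mitosis and spindle genes differed between the 3-day and 7-day TGFβ groups when these were tested against each other (limma, adjusted over all genes). Of 45 members, 38 were lower at 7 days than at 3 days, where 16.2% of all genes were lower. With no SB library at 7 days, this is a difference between treated groups, in which TGFβ and time in culture cannot be told apart. CDC25B differed in the other direction, with a log2 difference of 0.32 between 7 and 3 days. CDK6, a G1 kinase, was at 6127 and 6851 normalised counts in SB, 8311 and 7549 at 3 days and 6016 and 5970 at 7 days, above SB at 3 days and then lower by -0.40; corrected for GC content and length, the 3-day difference of 0.29 was 0.11 and no longer passed the threshold. TUBA4A, an alpha-tubulin, was at 2411 and 2031 in SB, 2867 and 3075 at 3 days and 2090 and 1845 at 7 days, above SB at 3 days and then lower by -0.60.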

How the results depend on the processing

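The number of members lower than in SB at 3 days was the value most open to processing. It was 26 as reported, 16 with no filter on low values, 13 without the trend in limma, and 14 to 30 with each library left out in turn. At 7 days it stayed within 40 to 44 under each alternative run, and between 7 and 3 days it was 38 as reported and 24 to 42 with each library left out. With the replicate number as a replicate block it was 24, 44 and 36 in the 3 comparisons. Same-numbered libraries did not deviate together in all pairs of groups (r of 0.14, -0.10 and -0.29), so the block stands only as an alternative. With the numbers crossed between 3 and 7 days 44 members were lower, against 42 in the same 4 libraries without a block. The crossing was chosen after the opposite deviations were seen and takes up that spread. Its higher count is therefore in part built in and lends no support. Equal library totals gave 33, 44 and 39. The direction of the members' median held in each alternative run. With each library left out, the 3-day difference ranged from -0.26 to 0.051 for BUB3, from -0.21 to 0.10 for CENPF, from -0.023 to 0.23 for ANLN and from -0.24 to 0.087 for MKI67, and the sign changed in each. The deposited values give no reads per gene, so counting error could not be set beside the spread between libraries.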
